A study of Mus musculus with 8 samples.

Results

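The subject here is 10 genes that mark the subtypes of cortical interneurons: Sst, Npy, Vip, Cck, Tac1, Pvalb, Calb2, Lamp5, Reln and Lhx6. They were given by symbol and not by a rule on measured values, though with earlier results of these data known. Each matched 1 row among the 55536 genes of the table. RNA-seq counts came from the frontal cortex of mice that were 8 weeks old, with 4 libraries of WT and 4 of HAR123-KO mice. HAR123-KO mice lack the mouse counterpart of HAR123, a neural enhancer that lies in the SMG6 gene. The enhancer was deleted with CRISPR-Cas9 in embryos of the C57BL/6J strain, so it is missing from every cell, and the lines were backcrossed to C57BL/6J. The labels do not say whether each library was made from 1 animal or from pooled animals, and p-values therefore measure the spread between these libraries only.

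Cortical interneurons are local neurons that release GABA and inhibit the neurons around them. Most arise in the medial or the caudal ganglionic eminence of the embryo and migrate into the cortex, and the classes keep distinct genes in the adult. Lhx6, a LIM-homeobox transcription factor, specifies the medial lineage. That lineage gives the fast-spiking cells that contain parvalbumin (Pvalb) and the dendrite-targeting cells that contain somatostatin (Sst). The caudal lineage gives cells with vasoactive intestinal peptide (Vip), many of which also contain calretinin (Calb2), and the neurogliaform cells marked by Lamp5 and Reln. Several of the 10 genes are not restricted to interneurons. Cck and Lamp5 are also expressed in excitatory cortical neurons, and Tac1 is abundant in the projection neurons of the neighbouring striatum. In whole tissue, fewer cells of a type and less RNA per cell cannot be told apart.

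The libraries held 13528251 to 17051001 counts, but Gm42418, a gene model lying over ribosomal RNA, alone took 55.1% to 58.0% of them. Nuclear protein-coding genes received 2786320 to 3732172 counts per library. The mitochondrial ribosomal RNAs held 9.24% to 9.69% of the counts in WT and 10.04% to 10.9% in HAR123-KO, and HAR123-KO replicate 4 had the lowest share of its genotype. Of genes that GABAergic neurons use, Gad1 had 769 to 1045 raw counts per library, while Dlx2 had 9 to 20, and all 7 genes of cortical excitatory neurons averaged 10 or more normalized counts. Genes of mitral cells and sensory axons of the olfactory bulb were at or near the limit, with 0 counts of Tbx21 and S100a5 in all 8 libraries. Genes of striatal projection neurons were present in every library. Raw counts of the 10 markers ran from 6 to 23 for Calb2 up to 489 to 659 for Lamp5, so precision differed widely among them.

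None of the 10 interneuron markers passed the test between genotypes. DESeq2 gave an adjusted p to 9 of them (all but Calb2), and 0 were under 0.05, whereas 1.69% of the 12758 genes tested across the genome were. With a minimum change of 0.5 on the log2 scale added, the count of markers was again 0, beside 0.298% of all genes tested. The gene nearest to the limit was Tac1, at 1.39 times the WT mean (adjusted p = 0.0647 by DESeq2). Tac1 was also the 1 marker with an unadjusted p under 0.05 by DESeq2, a level that 8.78% of all genes tested reached in that fit. By edgeR's quasi-likelihood test Tac1 was past the threshold (adjusted p = 0.0214) and the other 9 were not, where 2.28% of 14503 genes passed. By limma-voom 0 markers passed. Cck and Lhx6 also had an unadjusted p under 0.05 by edgeR (0.0027 and 0.044) and by limma-voom (0.016 and 0.041). The ranges of the 4 WT and the 4 HAR123-KO libraries overlapped for all 10 markers, while they did not overlap for 7.21% of the 14464 genes averaging 10 or more normalized counts.

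The estimates were small for most markers. The log2 fold change was above 0 for 4 markers and below 0 for 6, with a median of -0.03, and over all 14464 genes the median was 0.00. With library totals as size factors, which moved the median of all genes to 0.04, the markers stood at 6 above and 4 below 0 with a median of 0.01. For 7 markers (Sst, Npy, Vip, Cck, Pvalb, Lamp5 and Reln) the 95% interval of the log2 fold change lay between -0.5 and 0.5. Calb2, Lhx6 and Tac1 had intervals that reached past one of these bounds, so a change of that size was within the error for them. The tightest interval was that of Lamp5, from -0.13 to 0.09.

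**Figure D1:**
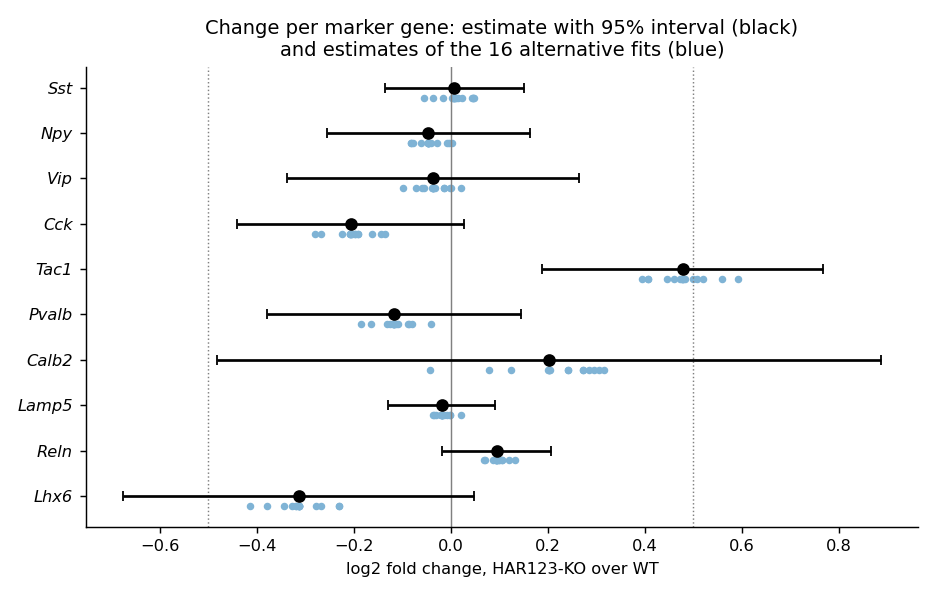
Log2 fold change of HAR123-KO over WT for each of the 10 interneuron markers (horizontal axis), with black points for the DESeq2 estimate, black bars for its 95% interval, blue points for the estimates of the alternative fits, and dotted lines at -0.5 and 0.5. The intervals of 9 markers hold 0, and that of Tac1 runs from 0.19 to 0.77.

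The markers spanned a wide range of levels. Per kilobase of exon, the highest mean over the 8 libraries was 59.7 times the lowest. Sst stood first with 524 normalized counts per kilobase (range over libraries 470.0 to 593), above Cck with 374 (300.5 to 457) and Npy with 268 (241 to 300.5). Cck and Npy overlapped slightly in these ranges, and Sst did not overlap with Cck. Lamp5 followed with 186 normalized counts per kilobase (177 to 191) and Pvalb with 93.9 (84.6 to 113), each apart from its neighbours in the order. Tac1 with 27.3 (19.7 to 36.9), Reln with 22.3 (20.4 to 24.3) and Vip with 21.2 (18.6 to 24.2) formed a group whose ranges overlapped. Lhx6 with 10.8 (7.88 to 13.8) and Calb2 with 8.79 (3.54 to 11.6) were lowest and overlapped with each other. The order of the means was identical in WT and HAR123-KO. It depended in part on the length used: divided by the longest annotated transcript instead of all annotated exons, Cck had 610 normalized counts per kilobase and moved above Sst, and Lamp5 had 279 and moved above Npy.

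**Figure D2:**
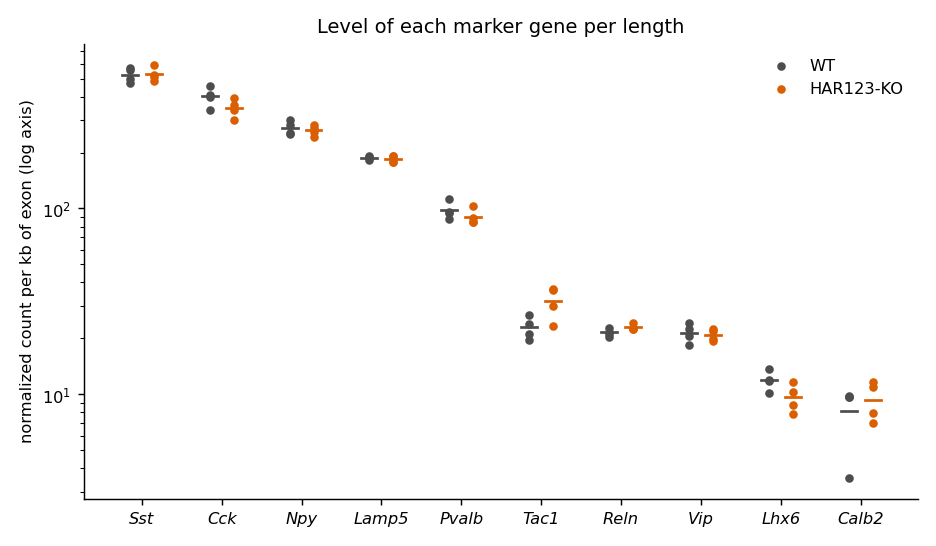
Normalized counts per kilobase of exon on a log axis for the 10 markers, in order of their mean, with one point per library (grey for WT, orange for HAR123-KO) and a short line at each genotype's mean. Sst lies highest with a mean of 524 and Calb2 lowest with 8.79, and the order is alike in both genotypes.

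Of the peptides, somatostatin inhibits the dendrites of pyramidal neurons when released from its cells. Sst (ENSMUSG00000004366, chromosome 16, 23889573 to 23890958, GRCm38) had 339, 357, 402 and 409 normalized counts in WT replicates 1 to 4, and 375, 428, 350 and 366 in HAR123-KO replicates 1 to 4. The highest library was a HAR123-KO library and the lowest a WT library, and the genotypes overlapped throughout. The means were 377 ± 33.9 in WT and 379 ± 33.9 in HAR123-KO (n = 4, SD), with a log2 fold change of 0.01 ± 0.07 (SE, adjusted p = 0.997 by DESeq2). The 95% interval of the fold ran from 0.910 to 1.11 times.

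Neuropeptide Y is a peptide of neurogliaform cells and of part of the somatostatin cells. Npy (ENSMUSG00000029819, chromosome 6, 49822710 to 49829507) had 142, 160, 145 and 170 normalized counts in the WT libraries and 154, 160, 136 and 147 in the HAR123-KO libraries. The means of 154 ± 13.2 and 149 ± 9.98 (n = 4, SD) differed by less than the spread between libraries, with a log2 fold change of -0.05 ± 0.11 (SE, adjusted p = 0.984 by DESeq2). Vip (ENSMUSG00000019772, chromosome 10, 5639218 to 5647617) encodes the peptide of interneurons that inhibit other interneurons. It had 82.2, 76.2, 70.3 and 63.1 normalized counts in the WT libraries and 67.6, 76.1, 66.0 and 74.4 in the HAR123-KO libraries, so all HAR123-KO libraries lay within the WT range. The log2 fold change of Vip was -0.04 ± 0.15 (SE, adjusted p = 0.993 by DESeq2), and the 95% interval of the fold ran from 0.791 to 1.20 times.

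**Figure D3:**
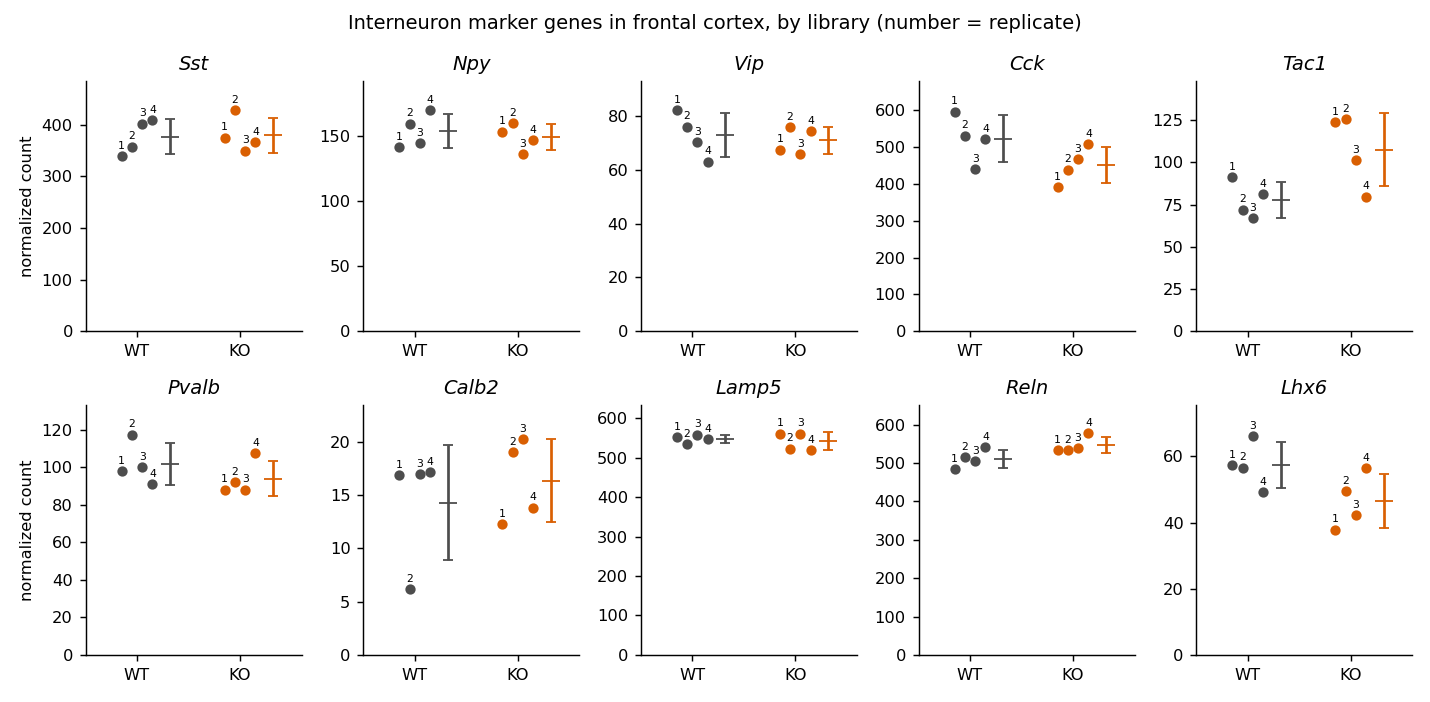
Normalized counts of the 10 markers in each library (vertical axes from 0, one panel per gene), with WT in grey, HAR123-KO in orange, the replicate number above each point, and the mean with SD (n = 4) to the right of each group. The groups overlap in all 10 panels, and 3 of the 4 HAR123-KO libraries lie above the highest WT library for Tac1.

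Tac1 (ENSMUSG00000061762, chromosome 6, 7554879 to 7565834) encodes the precursor of substance P and neurokinin A. In the cortex it is found in part of the interneurons, and in the striatum it marks the projection neurons of the direct pathway. Tac1 had 91.2, 72.1, 66.9 and 81.3 normalized counts in the WT libraries and 124, 126, 101 and 79.8 in the HAR123-KO libraries. HAR123-KO replicates 1, 2 and 3 lay above all WT libraries, and HAR123-KO replicate 4 lay within the WT range. The means were 77.9 ± 10.7 and 108 ± 21.6 (n = 4, SD), a log2 fold change of 0.48 ± 0.15 (SE, adjusted p = 0.0647 by DESeq2) that missed the threshold. Without HAR123-KO replicate 4 the log2 fold change was 0.59 and past it (adjusted p = 0.00648 by DESeq2), and with library totals as size factors it was 0.52 and also past it (adjusted p = 0.0355). In the other 7 fits that left out a library it was not, with an adjusted p of 0.0768 to 0.533.

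Genes of striatal projection neurons moved in the same direction. Of 12 such genes, 9 rose in HAR123-KO (DESeq2 adjusted p under 0.05) and 0 fell, beside 1.69% of all genes tested that passed in either direction. All 11 averaging 10 or more normalized counts were higher (median log2 fold change 0.38), and the counts were the same with library totals. Their summed level was 5603 to 5791 normalized counts in WT libraries and 7371 to 7503 in HAR123-KO, and no gene of the list was at 0. The list was chosen with earlier results of these data known, and the study's own list of changed genes holds Penk, Drd2 and Adora2a. The counts, median and summed level of the list are therefore not independent of those results. Penk, the enkephalin precursor of the indirect pathway, rose by 0.80 ± 0.05 on the log2 scale (SE, adjusted p = 7.2e-46 by DESeq2). Drd1, the dopamine receptor of the direct pathway, rose from 178 ± 17.1 to 232 ± 29.6 normalized counts (n = 4, SD), with a log2 fold change of 0.38 ± 0.10 (SE, adjusted p = 0.0120 by DESeq2). In HAR123-KO replicate 4, Drd1 had 189 normalized counts while replicates 1 to 3 of that genotype had 239 to 257, so that library was the lowest of its genotype for Drd1 as for Tac1. The ratio of Tac1 to Drd1 counts within a library was 0.444 ± 0.107 in WT and 0.461 ± 0.0460 in HAR123-KO (n = 4, SD). That of Tac1 to Penk was 0.163 ± 0.0165 in WT and 0.130 ± 0.0241 in HAR123-KO, and that of Tac1 to Pvalb was 0.777 ± 0.159 and 1.17 ± 0.303. For Adora2a, a receptor of the indirect pathway, HAR123-KO replicate 4 was the highest of its genotype with 259 normalized counts. The part of striatal RNA in the Tac1 difference was not tested.

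**Figure D4:**
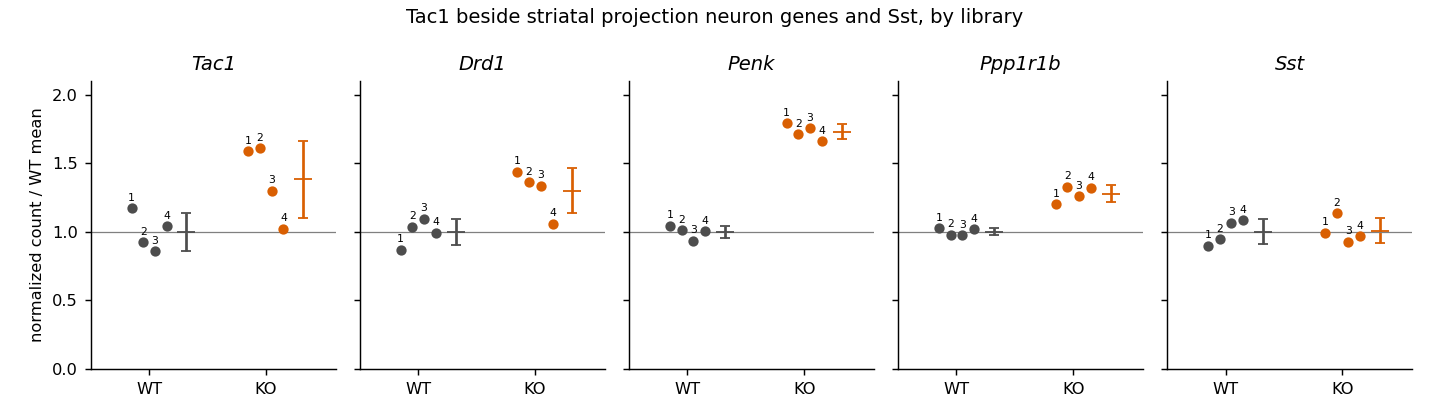
Normalized count of each library divided by the WT mean of that gene, for Tac1, the striatal projection neuron genes Drd1, Penk and Ppp1r1b, and Sst (WT grey, HAR123-KO orange, replicate numbers above the points, mean with SD at the right of each group, n = 4). HAR123-KO replicate 4 lies near the WT libraries for Tac1 and Drd1 and above them for Penk and Ppp1r1b, and Sst overlaps between the genotypes.

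Cholecystokinin is a peptide of basket cells with cannabinoid receptors and of many excitatory neurons. Cck (ENSMUSG00000032532, chromosome 9, 121489824 to 121495694) had 597, 531, 441 and 522 normalized counts in the WT libraries and 392, 439, 468 and 509 in the HAR123-KO libraries. HAR123-KO replicates 1 and 2 lay below all WT libraries, and WT replicate 3 sat among the HAR123-KO libraries. The means of 523 ± 64.0 and 452 ± 49.4 (n = 4, SD) gave a log2 fold change of -0.21 ± 0.12 (SE, adjusted p = 0.662 by DESeq2). Without WT replicate 3 the log2 fold change of Cck was -0.28 and past the threshold (adjusted p = 0.0136 by DESeq2), and in the other 7 fits that left out a library the adjusted p was 0.381 or higher. Genes of cortical excitatory neurons, which share Cck, had a log2 fold change below 0 in 7 of 7 cases (5 of 7 with library totals as size factors), with a median of -0.08. Of them Slc17a7 and Camk2a passed the test, and with library totals Slc17a7 alone did. The summed level of this list was 16084 to 16488 normalized counts in WT libraries and 15109 to 15250 in HAR123-KO, with no gene at 0, and its part in the Cck values was not tested.

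Short sequences at the start sites were compared among the peptide genes, to show a feature that most of them share and that did not enter their choice. The search covered promoters from 250 bases before to 50 after each RefSeq start (GRCm38.p6), and 9 of the 10 markers had an entry, Calb2 being the exception. The letters TGACG, the core of the cyclic AMP response element, occurred on either strand in 4 markers, Sst, Vip, Tac1 and Cck, all of them peptide genes. These 9 markers had 13 promoters, of which 4 held TGACG, and TGACG occurred in 20.8% of the 32851 promoters of the table. The letters TATAAA, the TATA box, were searched on both strands of the same promoters and occurred in a promoter of Lhx6 and in that of Vip, and in 13.6% of all promoters. The complete palindrome TGACGTCA, which contains this core on both strands, occurred in Sst and in 1.79% of all promoters. Windows of 30 bases are printed 5′ to 3′ on the strand of the gene, with the match in capitals (TGACG, its reverse complement CGTCA, or the palindrome).
Sst, chr16:23890874-23890903, minus strand: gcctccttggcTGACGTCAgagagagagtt
Vip, chr10:5639126-5639155, plus strand: gggatcactactgTGACGtctttcggggag
Tac1, chr6:7555005-7555034, plus strand: ggctctacaggctCGTCAcgcctgagataa
Cck, chr9:121495725-121495754, minus strand: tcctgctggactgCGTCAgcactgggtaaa
The match began 48 bases before the RefSeq start in Sst, 79 in Vip, 43 in Tac1 and 47 in Cck, and the promoter of Tac1 held 2 matches, of which 1 is shown. GENCODE places the first exon of Sst and of Tac1 farther upstream, and these 2 windows lie inside exons that were counted. A match describes letters and not binding, and these 4 genes had log2 fold changes from -0.21 to 0.48, not a common direction.

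The calcium-binding proteins mark classes by their content and not by their transmitter. Pvalb (ENSMUSG00000005716, chromosome 15, 78191114 to 78206400) encodes parvalbumin, the slow calcium buffer of basket and chandelier cells. It had 97.9, 117, 99.98 and 90.9 normalized counts in the WT libraries and 88.1, 92.2, 88.0 and 107 in the HAR123-KO libraries. HAR123-KO replicates 1 and 3 lay below all WT libraries and the other two within their range. The means of 102 ± 11.2 and 93.9 ± 9.20 (n = 4, SD) gave a log2 fold change of -0.12 ± 0.13 (SE, adjusted p = 0.924 by DESeq2), and the 95% interval of the fold ran from 0.769 to 1.11 times. Calb2 (ENSMUSG00000003657, chromosome 8, 110137502 to 110168210), which encodes calretinin, had 16.9, 6.18, 16.9 and 17.1 normalized counts in the WT libraries and 12.3, 19.0, 20.2 and 13.8 in the HAR123-KO libraries. WT replicate 2 was far below the other WT libraries. The Calb2 mean of 15.3 lay under the 17.6 at which the filter of DESeq2 stopped, so it had no adjusted p, and the log2 fold change of 0.20 ± 0.35 (SE, unadjusted p = 0.562) became -0.04 without WT replicate 2. The 95% interval of the log2 fold change of Calb2 ran from -0.48 to 0.89.

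Lamp5 and Reln, the markers of neurogliaform cells, had the smallest standard errors of the 10. Lamp5 (ENSMUSG00000027270, chromosome 2, 136052239 to 136069917) encodes a membrane protein related to the lysosomal LAMP family. It had 553, 534, 558 and 548 normalized counts in the WT libraries and 561, 523, 561 and 520.0 in the HAR123-KO libraries. The HAR123-KO libraries lay on both sides of the narrow WT range, and the log2 fold change was -0.02 ± 0.06 (SE, adjusted p = 0.988 by DESeq2). Reln (ENSMUSG00000042453, chromosome 5, 21884454 to 22344702) encodes reelin, a large secreted glycoprotein that guides cortical layering in the embryo and acts at synapses in the adult. It had 484, 516, 504 and 541 normalized counts in the WT libraries and 533, 534, 540 and 577 in the HAR123-KO libraries. All HAR123-KO libraries lay above WT replicates 1, 2 and 3, WT replicate 4 lay above 3 of them, and HAR123-KO replicate 4 stood apart as the highest. The means of 511 ± 23.9 and 546 ± 21 (n = 4, SD) gave a log2 fold change of 0.09 ± 0.06 (SE, adjusted p = 0.707 by DESeq2). The 95% interval of the Reln fold ran from 0.987 to 1.15 times. Genes of Cajal-Retzius cells, another source of reelin, were at or near 0, with no counts of Lhx5 and a summed level over 4 genes of 2.25 to 5.08 normalized counts in WT libraries and 2.85 to 12.3 in HAR123-KO.

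Lhx6 (ENSMUSG00000026890, chromosome 2, 36081953 to 36105408) was the only transcription factor among the markers. It had 57.4, 56.6, 66.1 and 49.2 normalized counts in the WT libraries and 37.9, 49.4, 42.3 and 56.4 in the HAR123-KO libraries. HAR123-KO replicates 1 and 3 lay below all WT libraries, and HAR123-KO replicates 2 and 4 within their range. The means were 57.3 ± 6.91 and 46.5 ± 8.13 (n = 4, SD), a log2 fold change of -0.31 ± 0.18 (SE, adjusted p = 0.673 by DESeq2). The 95% interval, from -0.68 to 0.05, held both 0 and a fall of more than 0.5. Lhx6 was below 0 in all 16 alternative fits (-0.41 to -0.23) and past the threshold in none of them, though the fits without WT replicate 3 and without HAR123-KO replicate 4 gave it no adjusted p.

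The balance between subtypes was read from ratios of raw counts within a library, in which differences of depth cancel. Pvalb counts were 0.272 ± 0.0464 of Sst counts in WT and 0.249 ± 0.0332 in HAR123-KO (n = 4, SD). Vip counts were 0.196 ± 0.0393 and 0.188 ± 0.0116 of Sst counts, and Npy counts were 0.411 ± 0.0360 and 0.394 ± 0.0157. In each of these 3 ratios the HAR123-KO mean lay within 1 SD of the WT mean. Lhx6 counts were 0.0656 ± 0.00717 of Gad1 counts in WT and 0.0516 ± 0.0101 in HAR123-KO, a mean more than 1 WT SD lower, with overlapping ranges. These ratios are of counts and not of cells.

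Other genes of the same lineages and classes were examined as lists. Of 7 genes of the medial lineage, 5 averaged 10 or more normalized counts, and all 5 had a log2 fold change below 0 (4 of 5 with library totals as size factors), with a median of -0.11 and 0 past the test. The most abundant were Satb1, which acts in the maturation of medial interneurons (log2 fold change -0.02 ± 0.06, SE), and Sox6 (-0.11 ± 0.11). Nkx2-1, the embryonic regulator of this lineage, had at most 5 raw counts in any library. Of 7 genes of the caudal lineage, 6 averaged 10 or more, with 2 higher and 4 lower (3 and 3 with library totals), a median of -0.05 and 0 past the test. The most abundant were Cnr1, the cannabinoid receptor of Cck basket cells (-0.13 ± 0.05, adjusted p = 0.163 by DESeq2), and Adarb2 (-0.10 ± 0.12). Nr2f2, a transcription factor of this lineage named after its values were seen, had 57.4 ± 5.54 normalized counts in WT libraries and 38.9 ± 8.94 in HAR123-KO (n = 4, SD) with no overlap, and its log2 fold change of -0.56 ± 0.19 (SE) did not pass (adjusted p = 0.155 by DESeq2). The ranges of Cnr1 did not overlap either, with 885 to 948 normalized counts in WT and 794 to 866 in HAR123-KO. Such a lack of overlap was seen in 7.21% of all genes averaging 10 or more normalized counts.

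Genes that accompany each subtype also gave 0 calls. Among 7 companions of Pvalb, the potassium channel genes Kcnc1 and Kcnc2, which serve fast spiking, had log2 fold changes of -0.11 ± 0.05 and -0.07 ± 0.06 (SE), and the median of the 5 averaging 10 or more was -0.07. Among 9 companions of Sst, Calb1 and Nos1 had -0.04 ± 0.07 and -0.11 ± 0.10, and the median of 6 was -0.04, all 6 being below 0 but 3 of 6 with library totals as size factors. Among 5 companions of Vip, all with means under 20 normalized counts, 0 received an adjusted p, and Mybpc1 and Tac2 had 0.24 ± 0.32 and -0.21 ± 0.37. Among 7 companions of neurogliaform cells, Sv2c and Id2 had 0.22 ± 0.08 and 0.01 ± 0.08, and the median of 5 was 0.01. The ranges of Sv2c did not overlap, with 250 to 281 normalized counts in WT and 289 to 333 in HAR123-KO (adjusted p = 0.185 by DESeq2). Cplx3, also a gene of layer 6b and named after its values were seen, had -0.45 ± 0.18 with no overlap (adjusted p = 0.266 by DESeq2). Over all genes averaging 10 or more normalized counts, 7.21% had no overlap.

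Among 11 pan-GABAergic genes, both enzymes of GABA synthesis were measured with small errors. Gad1 had a log2 fold change of 0.05 ± 0.04 (SE). Gad2 had 0.12 ± 0.05 (SE, adjusted p = 0.432 by DESeq2), and the median over the list was 0.12. Striatal projection neurons also use Gad1, Gad2 and the Dlx genes, so this list is not specific to cortical interneurons. Of 4 astrocyte genes, 3 were lower (2 with library totals as size factors) and 1 of them, Slc1a3, passed the test but not with library totals, and the summed astrocyte level was 2243 to 2365 normalized counts in WT libraries and 2050 to 2255 in HAR123-KO, with no gene at 0.

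Receptors and processing enzymes of the peptides completed the survey. Of 17 receptors and signalling partners for the peptides and reelin, 12 averaged 10 or more normalized counts, 7 of them higher and 5 lower, and 0 past the test (median log2 fold change 0.04). The reelin receptor Vldlr (0.06 ± 0.07, SE) and Dab1, which relays its signal (0.05 ± 0.07), were the most abundant. Of 9 genes that process or accompany peptides in secretory granules, 1 passed. Cpe, the carboxypeptidase that trims most neuropeptides, fell from 4169 ± 87.1 to 3804 ± 99.1 normalized counts (n = 4, SD), a log2 fold change of -0.13 ± 0.03 (SE, adjusted p = 1.7e-04 by DESeq2) with no overlap. It was not past the threshold with library totals as size factors (adjusted p = 0.325). Pcsk2, which cleaves the precursors, had -0.03 ± 0.03 (SE).

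Lists of other cell types give the tissue in which the markers were read. Both choroid plexus genes that received an adjusted p, Ttr and Kl, rose, and the summed level of that list was 90.1 to 110 normalized counts in WT against 737 to 774 in HAR123-KO. Of 6 genes of the claustrum and layer 6b, Nr4a2 and Gnb4 fell (log2 fold changes of -0.81 and -0.48). Of 5 upper-layer genes, Cux2 fell (-0.20), though it did not pass with library totals as size factors, and of 5 deep-layer genes 0 passed, while Foxp2 and Syt6, both higher, passed with library totals. The myelin gene Mbp rose (0.18), of 4 endothelial genes Vwf fell (-0.90), and of 4 microglial genes 0 passed. Of 3 genes of striatal cholinergic neurons, Slc5a7, the choline transporter, had 0.97 ± 0.31 (SE, adjusted p = 0.0781 by DESeq2). Chat and Slc18a3, both averaging under 10 normalized counts, had 0.13 ± 0.48 and 0.12 ± 0.54 (SE) and no adjusted p. The summed olfactory bulb level was 15.4 to 25.7 normalized counts in WT libraries and 20.9 to 27.6 in HAR123-KO. The part of these other cells in the marker values was not tested.

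**Figure D5:**
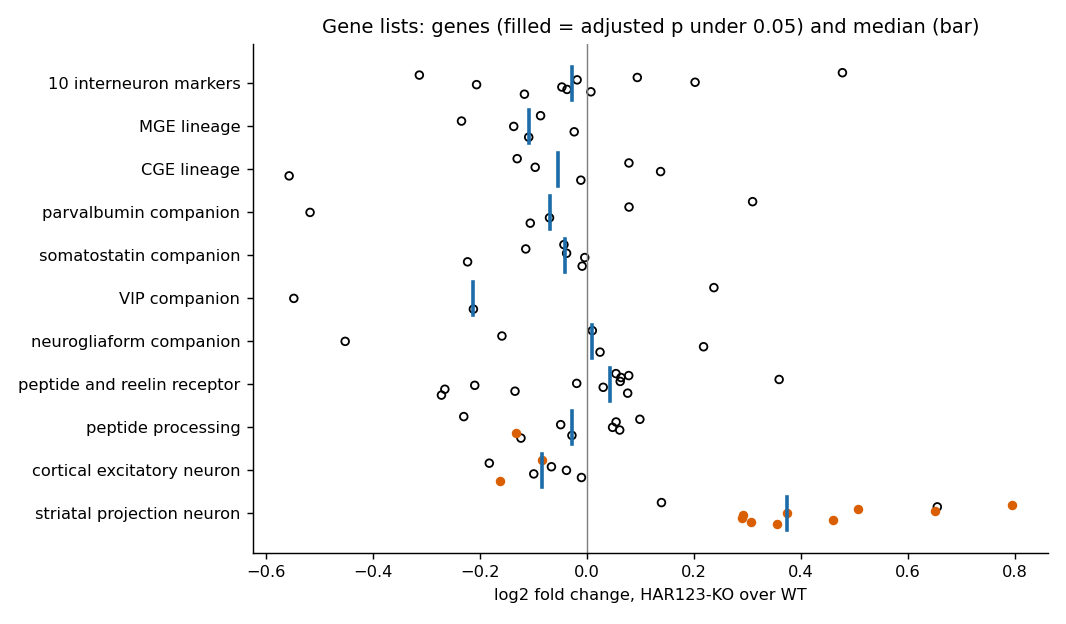
Log2 fold change of HAR123-KO over WT for the markers and 10 of the gene lists, over genes averaging 10 or more normalized counts (one point per gene, filled orange where the DESeq2 adjusted p is under 0.05, bar at the list's median). The 10 interneuron markers have no filled point and a median of -0.03, and 9 of the striatal projection neuron genes are filled with a list median of 0.38.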

How the data were processed

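Total RNA was depleted of ribosomal RNA and sequenced as paired-end directional libraries. Per the labels and the methods of the study, the authors aligned reads with STAR 2.5.2b to GRCm38 and summed exon reads per gene with featureCounts. The deposited values are raw read counts, 1 column per library, with 0 columns left unused. Strand and multiple-match settings are not given in the sources used here. All 55536 identifiers matched GENCODE M21 with identical start and end.

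Counts were tested with DESeq2 1.42.0 (R 4.3.3, Wald test, size factors by the median of ratios, a model of genotype alone, Benjamini-Hochberg adjustment over all genes kept by the independent filter at 0.1). A gene passed with an adjusted p under 0.05. Intervals are the estimate ± 1.96 SE. Alternatives were edgeR 4.0.16 (quasi-likelihood, TMM), limma 3.58.1 (voom), TMM factors, library totals, size factors from nuclear protein-coding genes, a filter of at least 10 counts in 4 libraries, the independent filter switched off, the replicate number as a block, and leaving out each library. The tests were checked on simulated data. Counts of nuclear protein-coding genes gave a chi-square of 1.208 to 1.305 per degree of freedom for pairs within a genotype, and no pair agreed within sampling noise.

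The 10 markers and 22 further gene lists (153 genes, 2 of them matched through an older symbol in RefSeq) were chosen with earlier results of these data known. The rule for named genes took all 10 markers, list genes that passed, and otherwise the 2 most abundant of a list, and the results of some list genes are not reported here. List medians cover genes averaging 10 or more normalized counts. Normalized counts are counts divided by size factors, and per-kilobase levels divide them by exon length.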

Additional observations from a re-analysis of the deposited data

Results flagged for a closer look

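In these results 1 library of a genotype lay far from the other 3, by a distance beyond Dixon's 95% critical value for 4 samples. This held for 5 of 72 groups of 4 values, where about 1 in 20 (3.6) is the share such a rule gives by itself.

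Calb2 had 6.18 normalized counts in WT replicate 2, against 16.9 to 17.1 in the other WT libraries. Reln had 577 normalized counts in HAR123-KO replicate 4, where replicates 1 to 3 had 533 to 540. Mitochondrial ribosomal RNA made up 10.04% of that library and 10.8% to 10.9% of the other HAR123-KO libraries. The summed level of the medial lineage list was 957 normalized counts in WT replicate 4, against 1001 to 1008 in the other WT libraries, and that of the olfactory bulb list was 27.6 in HAR123-KO replicate 1, against 20.9 to 22.01. These differences were not tested further.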

How the results depend on the processing

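Over the 10 markers and 16 alternative fits, 148 of 160 estimates kept their direction and their side of the threshold, 4 were newly past it (3 for Tac1, 1 for Cck) and 8 changed sign. With library totals as size factors the sign turned for Vip (0.0011) and Lamp5 (0.0205). When a library was left out the estimates ran from -0.0558 to 0.0478 for Sst, from -0.10 to 0.0209 for Vip, from -0.0439 to 0.32 for Calb2 and from -0.0820 to 0.0016 for Npy. The cause was not tested.

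The count of markers past an adjusted p of 0.05 was 1 with edgeR and with library totals, and 0 to 1 without single libraries. With the minimum of 0.5 added it was 1 with library totals and 0 to 1 without single libraries. Over all genes, 215 passed (124 higher, 91 lower), of them 38 beyond 0.5. edgeR gave 331 and 73, and single libraries left out gave 133 to 185 and 11 to 44. Among the fits that left out a library, the first count differed by over 1.5 times without WT replicate 1 (133) and HAR123-KO replicate 3 (142), the second without HAR123-KO replicate 4 (11) and WT replicate 3 (18). Library totals gave 198 with another split, 159 higher and 39 lower.

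With the replicate number as a block, 22 genes passed, 9 of them beyond 0.5, and 0 markers did. The numbers did not pair the libraries: deviations of same-numbered libraries correlated at -0.021 to 0.018 over 6340 genes, and 1 of 8 libraries correlated best with its own number.

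Counts were low for Calb2 (6 to 23 raw counts per library) and for the Vip companions, none of which received an adjusted p.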
